A study of Homo sapiens with 12 samples.

Results

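PAX5 binding sites of the Hodgkin lymphoma line L428-PAX5 were compared with those of the Burkitt lymphoma line Namalwa. The members are the merged PAX5 regions of 4 peak lists, the 2 immunoprecipitated libraries of each line, out of 12 samples in the series. The 4 lists held 17801 peaks, and peaks that overlapped by at least 1 bp or touched were joined into 12403 regions. Cells were cross-linked in 1% formaldehyde over 20 min, and 10 µg of the PAX5 antibody C-20 pulled down the bound chromatin. Namalwa cells carried no treatment by the labels. L428-PAX5 cells were labelled as treated with mifepristone, their PAX5 overproduction was induced 48 h before fixation, and their medium held added HEPES. Line, treatment and medium therefore change together and cannot be told apart, and L428 cells without induced PAX5 were not analysed here. Whether the 2 libraries of a line stem from separate cultures is not stated in the labels, so a difference between them may be technical.

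PAX5 is a transcription factor of the paired-box family that commits progenitors to the B-cell lineage and maintains B-cell identity. It switches on B-cell genes such as CD79A and BLNK and holds genes of other lineages silent. Namalwa represents a tumour of mature B cells that keep this programme, whereas the tumour cells of classical Hodgkin lymphoma descend from B cells and have lost much of it. The comparison asks how far PAX5, produced in excess in a Hodgkin line, sits at the places it occupies in a Burkitt line.

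List lengths varied more inside each line than from line to line. L428-PAX5 replicates 1 and 2 had 6201 and 3252 peaks, and Namalwa replicates 1 and 2 had 6241 and 2107. The means were 4726.5 ± 2085 (SD, n = 2) and 4174 ± 2923 (SD, n = 2), and the lines overlapped (two-sided exact permutation p = 1). With 2 libraries against 2 the smallest p is 0.333, so no measure of a library can pass 0.05 and the values below are described. Median peak widths were 542 and 505 bp in L428-PAX5 and 545 and 477 bp in Namalwa. Because read depths are unknown and a longer list finds more of any other list, the main comparisons were repeated with every list cut to its 2107 lowest p-values, the length of Namalwa replicate 2. This cut left peaks with a −log10 p of at least 8.92 and 6.27 in L428-PAX5 replicates 1 and 2 and 11.2 and 5.01 in Namalwa replicates 1 and 2.

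The peaks called in L428-PAX5 and in Namalwa lay largely at different sites. In L428-PAX5, 2139 regions had a peak in both libraries and none in either Namalwa library, which is 17.2% of the 12403 regions. In Namalwa, 1517 regions (12.2%) had a peak in both libraries and none in L428-PAX5. Both libraries of both lines shared 182 regions (1.47%). The larger L428-PAX5 class was not seen with lists of equal length, in which 1156 regions (21.2% of 5449) were in L428-PAX5 only, 1205 (22.1%) in Namalwa only and 87 (1.60%) in both lines. Single libraries moved these counts in part by construction, since a line with 1 library left needs only 1 peak. Without L428-PAX5 replicate 2 the L428-PAX5 class rose to 5378 and the shared class to 332. Without Namalwa replicate 2, the Namalwa class rose to 5350 and the shared class to 340.

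**Figure D1:**
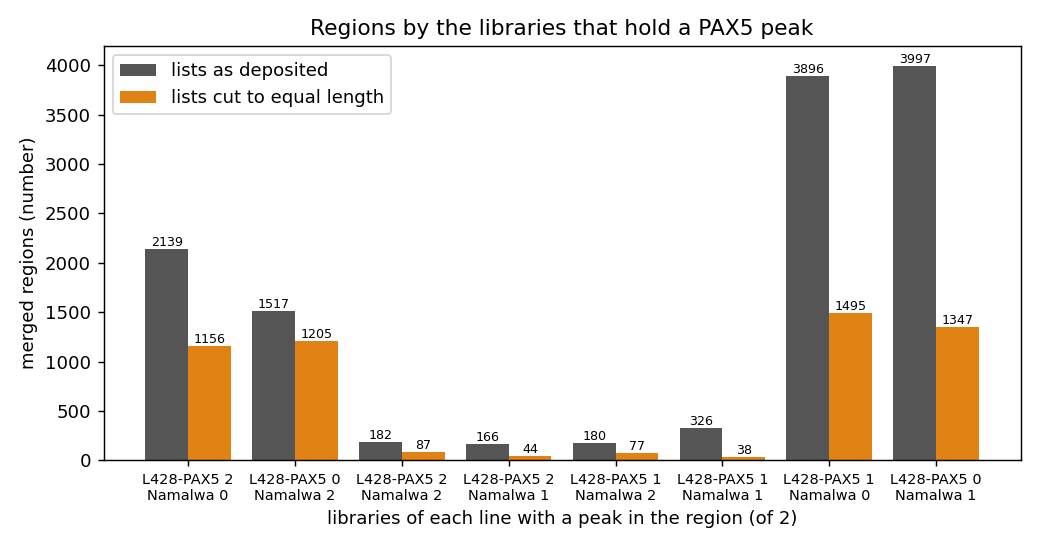
Number of merged regions (vertical axis) by how many of the 2 libraries of each line held a PAX5 peak (horizontal axis), with lists as deposited (grey) and cut to equal length (orange). Regions in 2 libraries of 1 line and 0 of the other (2139 and 1517) far outnumber the 182 found in all 4 libraries, and equal lengths bring both single-line classes close together (1156 and 1205).

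Most of the remaining regions rested on 1 library. In L428-PAX5, 3896 regions were found in 1 library and not in Namalwa, 3231 of them in replicate 1. In Namalwa, 3997 regions were found in 1 library and not in L428-PAX5, 3820 of them in replicate 1. Partial sharing was less common. Both L428-PAX5 libraries and 1 Namalwa library held 166 regions, and the Namalwa library was replicate 1 in 159 of these. Both Namalwa libraries and 1 L428-PAX5 library held 180 regions, with L428-PAX5 replicate 1 in 150. A region missing from a short list may lie under its threshold, so the single-line classes are regions not called in the other line and not regions shown to be unbound there.

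Of the 2487 regions reproducible in L428-PAX5, 348 had a peak in at least 1 Namalwa library (14.0%, exact Clopper-Pearson 95% interval 12.7 to 15.4%). The share in both Namalwa libraries was 7.32% (6.33 to 8.41%). Of the 1879 regions reproducible in Namalwa, 362 were met by at least 1 L428-PAX5 library (19.3%, 17.5 to 21.1%) and 9.69% (8.39 to 11.1%) by both. With equal lists the 2 directions came closer, at 10.2% (8.58 to 12%) of 1287 L428-PAX5 regions found in any Namalwa library and 12% (10.3 to 13.8%) of 1369 Namalwa regions found in any L428-PAX5 library. These intervals overlap, and they cover counting error over regions only. The cut itself hid matches. Beside the 10.2% of equal-length L428-PAX5 regions found in Namalwa, another 59 of the 1156 in L428-PAX5 only (5.10%) met a Namalwa peak in the lists as deposited. Beside the 12% of Namalwa regions found in L428-PAX5, another 122 of the 1205 in Namalwa only (10.1%) met an L428-PAX5 peak.

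The similarity of 2 libraries was also given as the Jaccard index, that is, regions held by both over regions held by either. It was 0.361 within L428-PAX5 and 0.295 within Namalwa. Each of the 4 pairs across the lines was far lower. L428-PAX5 replicate 1 had 0.0663 with Namalwa replicate 1 and 0.0444 with replicate 2, and L428-PAX5 replicate 2 had 0.0452 and 0.0441. The mean across the lines was 0.050 ± 0.0109 (SD over 4 pairs). With equal lists the 4 values closed up to between 0.0375 and 0.0409, whereas the values within a line rose to 0.444 and 0.489. The cut changes both the lengths of the lists and the strength of the peaks kept. With the better 50% of each list, which leaves the lengths unequal, the mean across the lines was 0.0378 and the values within L428-PAX5 and Namalwa were 0.372 and 0.303.

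In every list, strong peaks were found more often than weak ones in the other library of the line, and the share found in the other line was lower at the top of each list than the share found in the same line. Peaks of each list were ranked by p-value and divided into 10 classes of equal size. In L428-PAX5 replicate 1 the class of lowest p-values was found in replicate 2 at 93.7% and the class of highest p-values at 13.7%. The same classes were found in any Namalwa library at 16.6% and 9.52%. The fall within a line was smaller for the shorter lists, whose partner list is long, from 99.1 to 53.2% for L428-PAX5 replicate 2 and from 96.2 to 76.2% for Namalwa replicate 2, and it was from 92.2 to 4.81% for Namalwa replicate 1. In L428-PAX5 replicate 2 the shares in Namalwa were 15.0% at the top and 14.2% at the bottom. In Namalwa replicate 1, 23.5% of the top class and 10.6% of the bottom class were found in L428-PAX5. In Namalwa replicate 2 the shares were 34.6% and 11.4%. With equal lists the shares of the top and bottom classes in Namalwa were 9.95% and 6.67% for L428-PAX5 replicate 1 and 10.4% and 7.62% for replicate 2.

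The 100 strongest peaks of each list show the same unequal picture. All 100 of L428-PAX5 replicate 1 were in replicate 2, and 15 were in a Namalwa library. For L428-PAX5 replicate 2 the numbers were 97 and 14. All 100 of Namalwa replicate 1 were in replicate 2, and 35 were in an L428-PAX5 library, and for Namalwa replicate 2 they were 93 and 43. With equal lists 12 and 14 of the strongest L428-PAX5 peaks were in Namalwa, and 27 and 31 of the strongest Namalwa peaks were in L428-PAX5. Both Namalwa lists thus exceeded both L428-PAX5 lists under either length. With 2 lists a side, the difference between the directions was not tested.

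**Figure D2:**
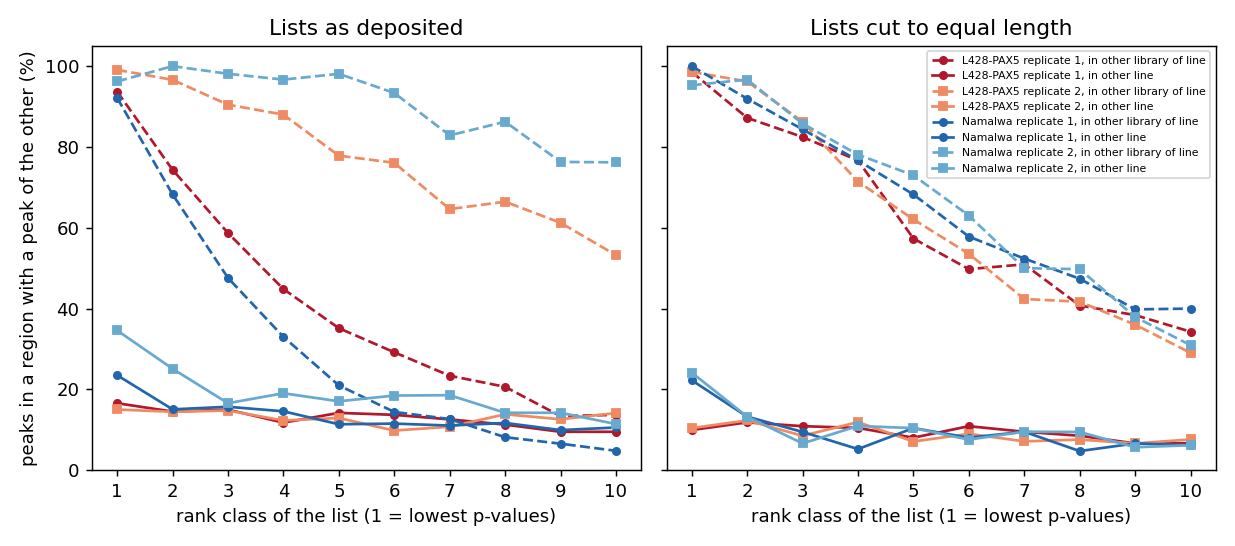
Share of the peaks of each list (vertical axis, percent) that lie in a region with a peak of the other library of the line (dashed) or of any library of the other line (solid), by rank class of the p-value (horizontal axis, 1 = lowest p), with lists as deposited (left) and cut to equal length (right). Dashed lines fall with rank, as deposited most steeply for the replicate 1 lists (93.7 to 13.7% in L428-PAX5), and the solid lines stay at or under 34.6%, highest in the first class of the Namalwa lists.

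Single regions are given by position on hg19, as the lists state it, and whether a start counts from 0 or 1 is not given in the sources used here. Genes, exons and introns are not named, since the gene tables used here are on GRCh38.p14. The value of a peak is the authors' −log10 p, which orders the peaks of 1 list and is no measure of change from line to line. The 10 regions with the highest mean within-list percentile (100 for the lowest p-value of a list) were named in each class. The top places of all 3 classes are thus high by choice.

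The strongest region of both L428-PAX5 lists lay at chr2:240513807-240515751. It had a −log10 p of 220.3 in replicate 1 and 169.2 in replicate 2. Namalwa replicate 1 had 2 weak peaks inside it, the better with 11.6 at rank 2004, and Namalwa replicate 2 had none, so that it belonged to none of the 3 classes. The strongest region of both Namalwa lists lay 827 kb away at chr2:239684938-239686530, with 158.8 and 117.9, and held no L428-PAX5 peak. The nearest L428-PAX5 peak was 95.4 kb from it and weak (6.04). Each line therefore had its leading PAX5 site in the same part of chromosome 2, and the sites differed.

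After this the leading regions found only in L428-PAX5 were chr5:3282786-3283576, with 155.8 and 123.5 in replicates 1 and 2, chr14:106048910-106049513, with 133.0 and 115.0, and chr2:44513466-44514200, with 107.7 and 80.8. Over the 10 named regions the values ran from 51.2 to 155.8 in replicate 1 and from 51.8 to 123.5 in replicate 2. None was worse than rank 20 in replicate 1 or 13 in replicate 2. The nearest Namalwa peak of any library lay 20.6 to 407.7 kb away, with a median of 198 kb. All 10 stayed in their class with equal lists.

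Among the regions found only in Namalwa, the second was chr7:98270967-98271781, with 83.5 and 45.7 in replicates 1 and 2, and the third was chr1:31227458-31227972, with 79.3 and 42.4. Over the 10 named regions the values ran from 69.1 to 158.8 in replicate 1 and from 33.5 to 117.9 in replicate 2, at rank 34 or better in replicate 1 and 30 or better in replicate 2. The nearest L428-PAX5 peak lay 21.5 to 1978 kb away, with a median of 164 kb. The farthest was chr13:103683687-103684356, which had 108.5 and 35.2 in Namalwa and its nearest L428-PAX5 peak 1978 kb away. Chromosome 13 held only 1.18 and 1.14% of the peaks of the L428-PAX5 lists.

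The leading shared region was chr3:126793570-126794552, with 64.7 and 56.4 in L428-PAX5 and 93.6 and 54.0 in Namalwa, and the lines overlapped. Next was chr2:47951216-47952232, with 44.3 and 35.6 in L428-PAX5 and 110.4 and 52.9 in Namalwa. It ranked 30 and 28 in the L428-PAX5 lists. In these lists the 10 named shared regions reached down to rank 985 in replicate 1 and 371 in replicate 2, and in the Namalwa lists to 225 and 231.

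**Figure D3:**
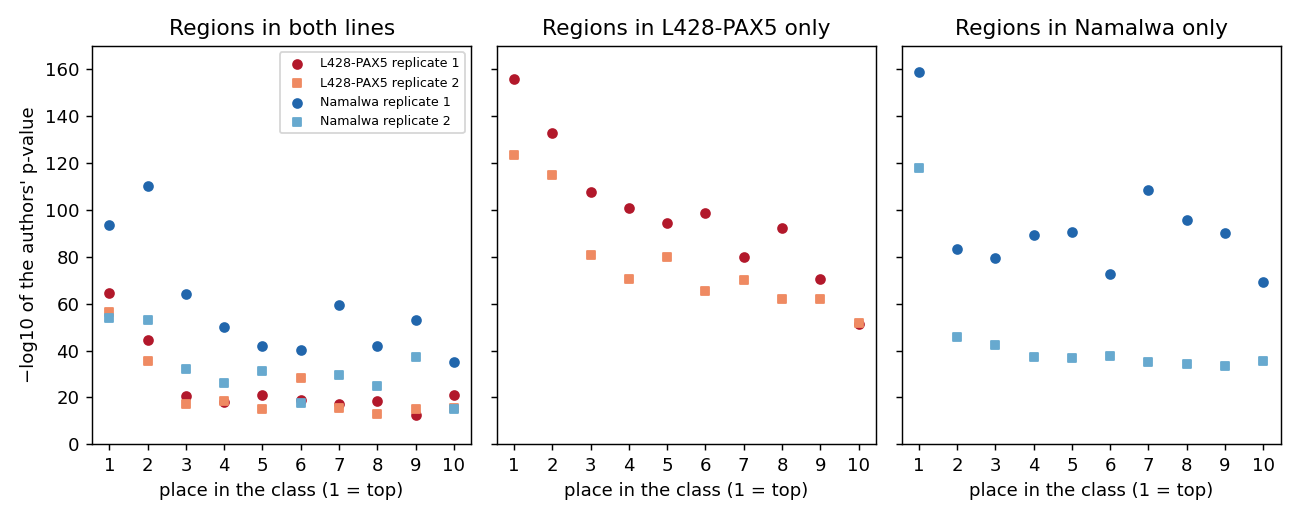
−log10 of the authors' p-value (vertical axis) of the 10 top regions (horizontal axis) in both lines (left), L428-PAX5 only (middle) and Namalwa only (right), 1 point per library. The places rest on the 4 lists in the left panel and on 2 lists in the others, so levels are not comparable between panels. In the top shared region the 2 lines overlap, and in the right panel replicate 1 lies above replicate 2 at each place.

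The rank of a shared region was more alike within a line than across the lines. The median distance between the centres of the best peaks was 40.3 bp within L428-PAX5 and 46.8 bp within Namalwa. Across the lines it was 84.0 and 70.0 bp for L428-PAX5 replicate 1 against Namalwa replicates 1 and 2, and 83.3 and 69.5 bp for L428-PAX5 replicate 2. The rule that peaks must overlap bounds these distances. The ranks of the 182 regions had a Spearman correlation of 0.605 within L428-PAX5 and 0.712 within Namalwa. Across the lines the 4 values were 0.0698, 0.0364, 0.188 and 0.142. These describe regions that all passed the threshold of every list, and the pairs share libraries.

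Where the lines did not overlap, more shared regions were placed higher in Namalwa than in L428-PAX5. List length bears on this as deposited, since a shared region must also be in the short list of Namalwa replicate 2. The median percentile of shared regions was 88.0 in Namalwa replicate 1 and 79.7 in L428-PAX5 replicate 1. In 70 of the 182 (38.5%) both Namalwa percentiles exceeded both L428-PAX5 percentiles, in 31 (17.0%) the order was the reverse, and in 81 (44.5%) the lines overlapped. With equal lists the counts were 40, 19 and 28 of 87. Only 7 regions lay in the top 10% of all 4 lists. At chr8:145786376-145788313 the L428-PAX5 values were 131.5 and 114.0, rank 4 in both lists. The Namalwa values were 48.1 and 9.85, rank 91 and rank 659. The mean percentile there was 99.9 in L428-PAX5 and 83.7 in Namalwa. At chr8:8610262-8611013 the L428-PAX5 values were 5.20 and 5.15, just past the threshold, against 26.8 and 14.2 in Namalwa. It had the widest gap of the 182 in favour of Namalwa, a mean percentile of 6.49 against 90.1.

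One place on chromosome 9 held 2 neighbouring shared regions with opposite order. At chr9:131418005-131418595 the values were 21.7 and 10.2 in L428-PAX5 and 5.38 and 5.26 in Namalwa, the widest gap of all in favour of L428-PAX5. Only 262 bp further on, chr9:131418857-131419557 had 20.6 and 17.0 in L428-PAX5 and 64.1 and 32.1 in Namalwa. By mean percentile the lines were close in this second region, at 94.9 in L428-PAX5 and 98.9 in Namalwa. In the first region they were far apart, at 87.4 and 8.05. L428-PAX5 replicate 1 thus gave both sites like values, and replicate 2 gave the second a higher value than the first. Both Namalwa libraries gave the second a far higher value than the first. Both regions were chosen after their values were seen.

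**Figure D4:**
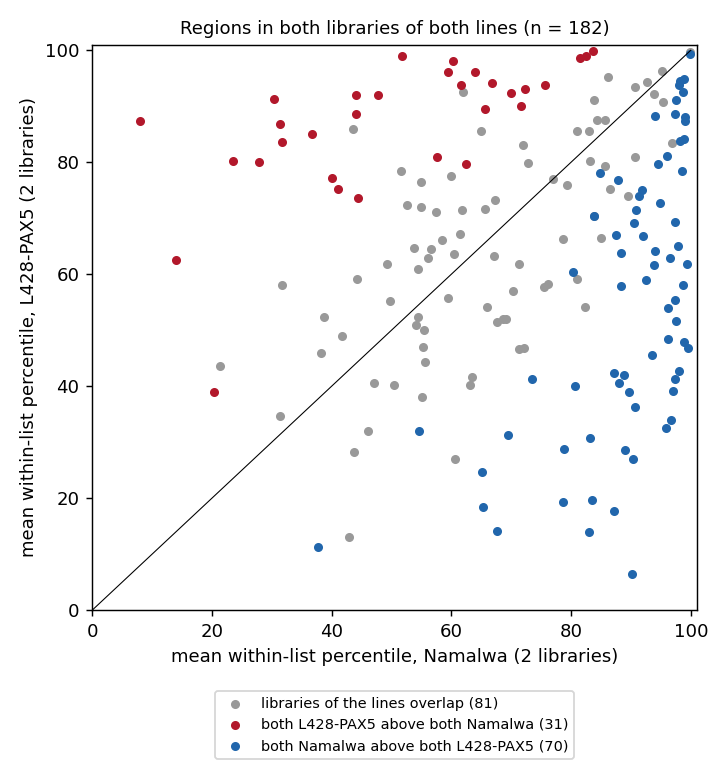
Mean within-list percentile of the p-value in L428-PAX5 (vertical axis) and Namalwa (horizontal axis) for the 182 regions in both libraries of both lines, 1 point per region, coloured by whether the 2 libraries of a line lie above both of the other. Points scatter widely around the line of equal percentiles. Both Namalwa libraries lie above both L428-PAX5 libraries in 70 regions, the reverse holds in 31, and the lines overlap in 81.

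The median width of shared regions was 796 bp, against 638 bp in L428-PAX5 only and 637 bp in Namalwa only. At least 2 peaks of a single library were joined in 13 of the shared regions (7.14%), in 42 of those in L428-PAX5 only (1.96%) and in 43 in Namalwa only (2.83%). Both the width and the number of joined peaks tend to be larger in a region merged from 4 lists than in one merged from 2 by construction. Of the shared regions 3 lay on contigs outside the assembled chromosomes. Without peaks on such contigs there were 179 shared regions, 2138 in L428-PAX5 only and 1517 in Namalwa only.

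The 2 lines filled the chromosomes differently. In both L428-PAX5 libraries 9 of 23 chromosomes (39.1%) took a larger share of the peaks than in both Namalwa libraries, and 11 (47.8%) took a smaller share. With equal lists there were 8 (34.8%) in each direction, and all 8 of each had the same order in the lists as deposited. Chromosomes 2, 5, 6, 8, 9, 12, 17 and 20 were fuller in L428-PAX5, and 1, 4, 7, 10, 13, 14, 18 and 22 in Namalwa. The list of Namalwa replicate 2 is the same under either length, so the 2 settings are not independent. On chromosome 20 the lines nearly met, with 3.02 and 3.57% of the L428-PAX5 peaks and 2.74 and 2.99% of the Namalwa peaks. Chromosome 17 held 5.89 and 6.58% of the L428-PAX5 peaks and 3.27 and 3.56% of the Namalwa peaks. Chromosome 13 showed the opposite, with 1.18 and 1.14% in L428-PAX5 and 2.84 and 2.71% in Namalwa.

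The single-line classes follow the same chromosomes. Chromosome 8 had 164 regions in L428-PAX5 only and 69 in Namalwa only, or 7.67% and 4.55% of each class, and chromosome 6 had 150 and 51 (7.01% and 3.36%). Chromosome 22 had 22 and 42 (1.03% and 2.77%). These shares are not independent of the shares of peaks. Input libraries were not analysed here, so these shares stand without a background for each chromosome.

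**Figure D5:**
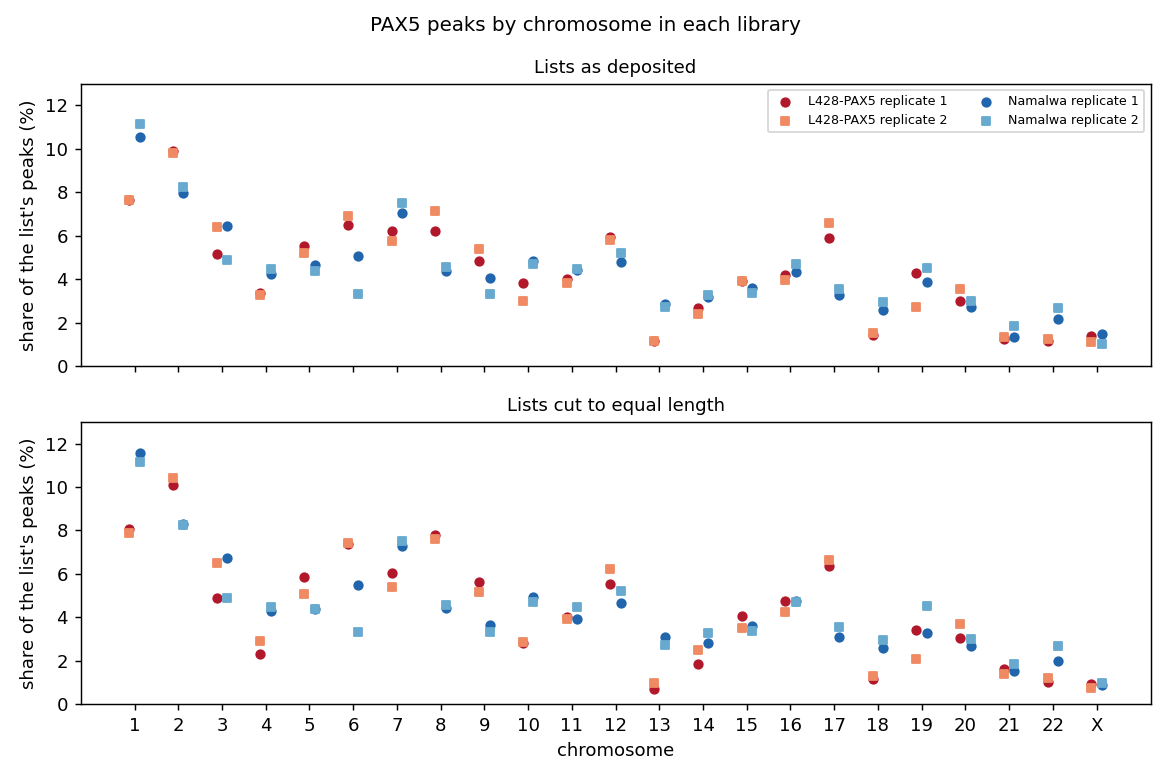
Share of each list's peaks on each chromosome (vertical axis, percent; horizontal axis, chromosomes 1 to 22 and X), 1 point per library, with lists as deposited (top) and cut to equal length (bottom). Both L428-PAX5 points lie above both Namalwa points on chromosomes such as 8 and 17, and below them on 1, 13, 18 and 22.

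Some stretches of the genome gathered many regions of 1 line, counted in windows of 1 Mb that were chosen after the lists were seen. Of 2405 windows with any region, 1175 held a region in L428-PAX5 only and 909 one in Namalwa only. L428-PAX5 had 52 windows with at least 5 of its own regions, and Namalwa had 26. With equal lists there were 18 and 11. In the lists as deposited the 2 lines had such a window in common once, at 11 to 12 Mb of chromosome 16. Of all 36 regions there, 12 were in L428-PAX5 only, 8 in Namalwa only and none in both lines. The others fell outside these classes, since each had a peak in only 1 library of at least 1 line. Some may thus be shared in part. With equal lists the numbers in L428-PAX5 only and Namalwa only were 6 and 5. The 12 L428-PAX5 regions lay between 11058032 and 11465096, with a median −log10 p of 11.9 and 7.54 in replicates 1 and 2. The 8 Namalwa regions lay between 11043342 and 11776834, with medians of 15.6 and 9.40. Both lines thus had many PAX5 sites in this stretch. Over all 12403 regions, 17.2% were in L428-PAX5 only, 12.2% in Namalwa only and 1.47% in both lines. With so low a shared percentage, the lack of a region in all 4 libraries among 36 is no trait of this stretch.

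Other windows held more regions of 1 line than of the other. At 129 to 130 Mb of chromosome 8 there were 9 regions in L428-PAX5 only and none in Namalwa only, with values up to 38.2 and 34.8. At 132 to 133 Mb of chromosome 9 there were 11 and 1, and at 144 to 145 Mb of chromosome 8 there were 10 and 4, with 1 region in both lines. At 187 to 188 Mb of chromosome 3 Namalwa had 8 and L428-PAX5 1, and the single L428-PAX5 region was weak (6.64 and 6.76). The 8 Namalwa regions ran from 187239171 to 187806107, the strongest with 39.0 and 16.1. At 85 to 86 Mb of chromosome 16 Namalwa had 8 and L428-PAX5 2. With regions outside the classes counted too, these windows held 19, 21, 33, 23 and 25 regions in the order given. Over all regions, 17.2% were in L428-PAX5 only and 12.2% in Namalwa only. The 4 Namalwa regions of 33 at 144 to 145 Mb of chromosome 8 were near that second share. With equal lists the L428-PAX5 only and Namalwa only counts were, in the same order, 6 and 0, 6 and 1, 6 and 2, 0 and 8, and 2 and 7.

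Regions of a class lay nearer to their own kind than to those of the other line. With equal lists, so that the classes were of like size, 32.4% of the regions in L428-PAX5 only had another of their class within 100 kb, and 11.8% had a region of Namalwa only. For Namalwa only the shares were 29.1% and 12.3%. Within 10 kb they were 11.1% and 1.64% for L428-PAX5 only, and 8.71% and 1.58% for Namalwa only. The class rule bears on this in part. A region met by a peak of the other line leaves its class, while separate nearby peaks of the same line stay. Regions of L428-PAX5 found in 1 library and not in Namalwa had one of the Namalwa only class within 100 kb at 13%, close to the 11.8% of the reproducible ones. Shared regions had one of L428-PAX5 only within 100 kb at 28.7% and one of Namalwa only at 23%. These shares describe positions on these lists and were not tested.

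Among the 100 strongest peaks of each list, those absent from the other library of the line were all in replicate 2. L428-PAX5 replicate 2 had 3 that replicate 1 lacked, all at chr8:43092727-43096141. Namalwa replicate 2 had 7 that replicate 1 lacked, and 3 of these were at the same place. At chr8:43092720-43093454 the value was 46.1 in L428-PAX5 replicate 2 and 95.7 in Namalwa replicate 2, rank 15 and rank 3 of their lists, with no peak in replicate 1 of either line. The neighbours chr8:43094610-43095300 (28.3 and 37.8) and chr8:43095759-43096149 (28.5 and 49.7) had the same pattern. Another of the 7, chr1:121484164-121485602, was rank 2 of Namalwa replicate 2 with 106.3 and was absent from the other 3 lists.

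Replicate 2 of both lines thus had the 3 strong peaks of chromosome 8 in common. The other strong Namalwa replicate 2 peaks that replicate 1 lacked were absent from L428-PAX5 replicate 2 or, in 1 case, weak there (5.15). The lists were not filtered for places of high background, and whether any of these peaks reflect bound PAX5 was not tested. Of the 326 regions found in 1 library of each line, 5 were in both replicates 2, with median values of 28.3 and 37.8. Both replicates 1, the longer lists, had 275, with medians of 6.87 and 7.56. With equal lists there were 38 such regions, 10 in both replicates 2, 8 in both replicates 1, and 12 and 8 in the pairs of unlike number, so pairs of the same number did not hold more. The labels name no batch, and whether the replicate numbers mark one was not tested. None of these regions enters the 3 classes, since each class asks for both libraries of a line.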

How the data were processed

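The authors deposited 1 peak list per immunoprecipitated library, with chromosome, start, end, name and a p-value per peak, and the 4 lists of L428-PAX5 and Namalwa were used. The unit was read from the values, all below 1e-05. Per the submitters' processing notes, the build was hg19 and the tools included BWA 0.5.9-r16, CASAVA 1.3 and CASAVA 1.8. Peak names carry PeakRanger, per the files. Not given in the sources used here are the settings of the caller, its use of input and any adjustment of the p-value. Read depth is unknown, and input libraries were not analysed here.

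Peaks were merged into regions and classified by the libraries that held them. Groups came from the sample titles. Regions are not replicates, so no test over regions was made. Named regions were the 10 with the highest mean within-list percentile in each class and the strongest of each list. Members and rules were chosen with earlier results of these data known. Planned gene annotation, gene lists and motif counts were not run, because no genome or annotation of hg19 was used here. The counting was tested on simulated lists. Tables were made with pandas 2.3.3 and numpy 2.4.6 in Python 3.11.15, intervals and permutations with scipy 1.17.1, and figures with matplotlib 3.10.9.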

Additional observations from a re-analysis of the deposited data

How the results depend on the processing

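Of 97 recomputed values, 65 stayed within the spread over pairs, the interval or 1.5 times the count, and 32 moved. The median distances, rank correlations and chromosome counts did not move with equal lists. Centres within 200 bp gave 12.4% of L428-PAX5 regions in any Namalwa library. Equal lists gave 87 shared regions and 1156 in L428-PAX5 only, shares of 10.2% (L428-PAX5 regions in any Namalwa library), 12% and 6.36% (Namalwa regions in any and all L428-PAX5 libraries), Jaccard indices of 0.444, 0.489 and, across lines, 0.0391, and for the top 10% of L428-PAX5 1, L428-PAX5 2 and Namalwa 2 in the other line 9.95, 10.4 and 24.2%. The better 50% of each list gave 67 shared, 1143 L428-PAX5 and 811 Namalwa regions, by construction fewer, shares of 10.1 and 5.27% for L428-PAX5 regions and 15.8 and 6.96% for Namalwa regions, and an index across lines of 0.0378. Leaving out each library gave 188 to 340 shared regions, 2148 to 5378 in L428-PAX5 only and 1547 to 5350 in Namalwa only, shares of 7.56 to 13.7% (any) and 5.39 to 13.7% (all) for L428-PAX5 regions and of 11.2 to 18.4% and 5.50 to 17.7% for Namalwa regions, and an index across lines of 0.0440 to 0.0556. For the other moves the cause was not tested.

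As a replicate block, pairs with the same replicate number alone gave a mean index of 0.0552 across lines. Gene annotation and motif windows were not run. Depth is unknown, so a region absent from a list may lie under its threshold.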
